A study of Rattus norvegicus with 18 samples.

Results

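The 9 genes described here encode 6 receptor tyrosine kinases and 3 of their ligands: the hepatocyte growth factor receptor Met and its ligand Hgf, the RON receptor Mst1r and its ligand Mst1, the receptor Ros1, and the TAM receptors Axl, Mertk and Tyro3 with their ligand Gas6. They were taken by symbol from the deposited tables of 22081 genes, where each matched 1 entry, and all 9 passed the filter on low counts at every time point. Lung RNA of 18 male F344 rats was sequenced, with 3 vehicle control rats and 3 rats given MWCNT for each of 3 time points. The treated rats had received MWNT-7, a multiwalled carbon nanotube, at 0.5 mg/kg by intratracheal instillation every 4 weeks from 9 weeks of age, and the control rats had received the vehicle alone. Lungs were taken at 26 weeks (Year 0.5), 52 weeks (Year 1), and 104 weeks (Year 2) after the first instillation. No rat carried a genetic alteration named in the labels. The study's methods state that a small part of the accessory lobe was used and that tissue with visible tumors was left out.

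Receptor tyrosine kinases span the cell membrane, and binding of a ligand outside the cell switches on the kinase inside. HGF is secreted mostly by mesenchymal cells, acts on MET of epithelial cells, and is known as a growth and repair signal of the alveolar epithelium. The Mst1 product, macrophage-stimulating protein (MSP), is made mainly by the liver as an inactive precursor and activates RON on epithelial cells and macrophages. GAS6 bridges phosphatidylserine on dying cells to AXL, MERTK and TYRO3, and protein S bridges it to MERTK and TYRO3. Through these receptors macrophages clear dying cells and dampen inflammation. ROS1 is best known for the gene fusions that activate it in a subset of human lung adenocarcinomas.

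Higher levels of Met, Ros1, Axl and Mst1 were found in treated rats at all 3 time points, and Mertk stood highest in the treated rats of Year 2. Hgf and Gas6 were lower in treated rats at all 3 time points. Tyro3 was modestly higher, and Mst1r differed from controls at Year 2 alone by the test used. The contrast between MWCNT-treated and control rats grew from Year 0.5 to Year 2 for Mertk, the single member for which the test of that change passed.

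The library totals ran from 13297643 to 21130757 reads counted to genes per rat, with medians of 14721398 in control rats and 15804905 in MWCNT-treated rats. Counts behind the members ranged from 95 to 187 for Mst1r, the least counted, to 8612 to 16590 for Gas6. Levels are given as TPM (transcript abundance scaled to the same total in each library), a unit that takes account of gene length. Fold changes were fitted to the counts with edgeR on the scale set by TMM normalization factors, where TMM is the trimmed mean of M-values. The false discovery rate (FDR) was Benjamini-Hochberg adjusted over all genes tested, and a gene was called a DEG where FDR was below 0.05 and its log2 fold change was above 1 or below -1. The 2 scales do not coincide. For counts without the TMM factors, the median log2 difference of all genes was -0.12 at Year 0.5, -0.13 at Year 1 and -0.18 at Year 2. It was -0.021, 0.00053 and -0.011 with them. These medians are of counts, and TPM can lie farther off. Mst1r at Year 1 was at -0.42 by limma on log2(TPM + 0.1), beside -0.19 with TMM factors.

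Markers of several lung cell types moved with the treatment. The summed TPM of 10 macrophage markers was 24234 to 30370 over the controls and 55006 to 64050 over the rats given MWCNT. Of the 10, 7, 6 and 8 were DEGs that rose at the 3 time points in order. Beside them, 9.1%, 10.2% and 16.4% of all genes were DEGs in either direction. Lyz2, the gene of lysozyme, made up 98.05% to 98.81% of the macrophage sum in every rat. The other 9 markers summed to 312 to 406 TPM over the controls and 779 to 1151 TPM over the treated rats. Cd163, a scavenger receptor, fell at Year 1 alone, as a DEG by edgeR (-1.15, SE 0.26, FDR = 0.0068). At Year 2 all 10 markers, Cd163 included, were higher by FDR, where 25.2% of all genes were. Marco, another of the 10, had 0 to 7 counts in controls and 26 to 130 in treated rats. It passed the filter on low counts through the treated rats, so its place in these counts is not independent of the filter. The 10 markers of alveolar type 2 cells, the surfactant-producing epithelium, summed to 28478 to 37717 TPM in controls and 52493 to 62480 TPM in treated rats, and 4, 4 and 5 of them were DEGs that rose. The 8 markers of alveolar type 1 cells summed to 6137 to 7172 TPM in controls and 2759 to 4500 TPM in treated rats, and the 7 endothelial markers found summed to 2527 to 3228 TPM against 783 to 1694 TPM. None of the markers on these 4 lists was at 0 throughout a group, so the lungs carried the markers their label calls for. The 6 heart muscle markers summed to 73 to 654 TPM in controls and 16 to 202 TPM in treated rats. The part of these cell types in the results that follow was not tested, and in bulk lung RNA more cells of a type cannot be told apart from more RNA per cell.

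Promoter sequence was read for the members with all or part of a window of 250 bases before the annotated gene, and only that part was read. These include both members that fell, Hgf and Gas6, and the pair of receptors Ros1 and Axl that rose. The sequences are the bases just before the outermost annotated start in RefSeq, build GRCr8, written 5′ to 3′ on the gene's own strand. The Hgf window lay at chr4:19700468-19700717 on the minus strand, the Gas6 window at chr16:82747426-82747675 on the plus strand, the Ros1 window at chr20:32126676-32126797 on the minus strand and the Axl window at chr1:90424124-90424259 on the minus strand. Gas6 is on the minus strand in the positions of the files' build and on the plus strand in GRCr8, while the other 3 genes have the same strand in both. Capitals mark a match to CCAAT in Hgf and to the GC box GGGCGG in Gas6, each found here as its reverse complement.
Hgf: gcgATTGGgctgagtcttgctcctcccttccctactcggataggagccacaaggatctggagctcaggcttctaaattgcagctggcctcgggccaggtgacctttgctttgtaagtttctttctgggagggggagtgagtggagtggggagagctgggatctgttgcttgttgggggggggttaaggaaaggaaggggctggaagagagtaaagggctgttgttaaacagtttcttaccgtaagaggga
Gas6: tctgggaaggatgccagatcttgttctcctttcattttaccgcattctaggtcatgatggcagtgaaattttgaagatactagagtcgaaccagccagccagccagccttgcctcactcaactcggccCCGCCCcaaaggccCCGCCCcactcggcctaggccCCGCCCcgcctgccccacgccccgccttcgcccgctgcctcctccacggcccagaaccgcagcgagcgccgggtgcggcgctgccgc
Ros1: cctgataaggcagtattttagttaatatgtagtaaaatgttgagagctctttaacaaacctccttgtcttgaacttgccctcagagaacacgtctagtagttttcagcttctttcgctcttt
Axl: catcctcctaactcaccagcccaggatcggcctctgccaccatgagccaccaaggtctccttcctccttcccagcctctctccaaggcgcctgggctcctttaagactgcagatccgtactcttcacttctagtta
The 5 motifs searched on both strands were the AP-1 site TGANTCA, the GC box GGGCGG, the CCAAT box, the TATA box TATAAA and the E-box CACGTG. The Gas6 window held 3 GC boxes, and 30.5% of 33469 RefSeq promoters of the same 250 bases held at least 1. The Hgf window held 1 CCAAT, found in 34.0% of promoters. The windows of Ros1, 122 bases, and Axl, 136 bases, held none of the 5. A match is a description of these letters and was not tested for binding.

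Met, the receptor for HGF (ENSRNOG00000052745, Rnor_6.0 chromosome 4, 44774741 to 44852665, plus strand), was measured at 25.1, 25.1 and 29.6 TPM in the 3 control rats of Year 0.5 and at 49.4, 50.3 and 43.9 TPM in the MWCNT-treated rats. At Year 1, Met stood at 29.3, 33.3 and 35.5 TPM in controls and at 50.4, 40.3 and 48.3 TPM in treated rats. At Year 2, Met stood at 17.0, 18.5 and 24.6 TPM in controls and at 46.3, 40.2 and 45.2 TPM in treated rats. The lowest treated rat of every year was above all 9 control rats, and the treated levels stayed close to one another over the years while those of controls were lowest at Year 2. The log2 fold change of Met was 0.99 (SE 0.09, FDR = 7e-05) at Year 0.5, 0.74 (SE 0.09, FDR = 0.00027) at Year 1 and 1.35 (SE 0.12, FDR = 2.7e-05) at Year 2 by edgeR. Met was thus a DEG at Year 2, and at Year 0.5 it lay just inside the fold limit, which it passed at 1.07 when either control rat 3 or treated rat 3 of that year was left out.

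Mst1r, which encodes RON (ENSRNOG00000032618, chromosome 8, 116686601 to 116700132, plus strand), was among the lowest members. Its levels were 4.82, 5.32 and 4.69 TPM in controls and 4.50, 4.13 and 5.26 TPM in treated rats at Year 0.5. They were 5.40, 5.60 and 5.04 TPM against 4.47, 3.86 and 3.64 TPM at Year 1. At Year 2 they were 3.46, 3.07 and 3.77 TPM against 4.73, 3.69 and 4.48 TPM. The groups overlapped at Year 0.5 and Year 2, and at Year 1 every treated rat was below every control rat. On the TMM scale Mst1r passed at Year 2 alone, with a log2 fold change of 0.54 (SE 0.17, FDR = 0.023, edgeR), beside 0.05 (SE 0.14) at Year 0.5 and -0.19 (SE 0.13) at Year 1, where FDR was 0.81 and 0.28. The Mst1r call at Year 2 was lost without control rat 2 (FDR = 0.073), without treated rat 1 (0.095), without treated rat 3 (0.061), and with library size alone (0.083), while limma on log2(TPM + 1) called Mst1r lower at Year 1 (-0.35, FDR = 0.02).

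Ros1 (ENSRNOG00000000406, chromosome 20, 33100191 to 33323367, minus strand), the kinase named above for its fusions, was at 3.74, 3.45 and 3.11 TPM in controls and at 7.49, 8.25 and 6.71 TPM in treated rats at Year 0.5. At Year 1, Ros1 was at 3.80, 4.36 and 4.45 TPM in controls and at 6.95, 5.58 and 7.24 TPM in treated rats. Its levels at Year 2 were 2.66, 3.19 and 3.94 TPM in controls and 6.50, 6.96 and 6.90 TPM in treated rats. All 9 treated rats were above all 9 control rats. Ros1 rose with a log2 fold change of 1.27 (SE 0.11, FDR = 6e-05) at Year 0.5, 0.88 (SE 0.10, FDR = 0.00021) at Year 1 and 1.28 (SE 0.12, FDR = 3.1e-05) at Year 2 by edgeR, and was a DEG at Year 0.5 and Year 2.

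**Figure D1:**
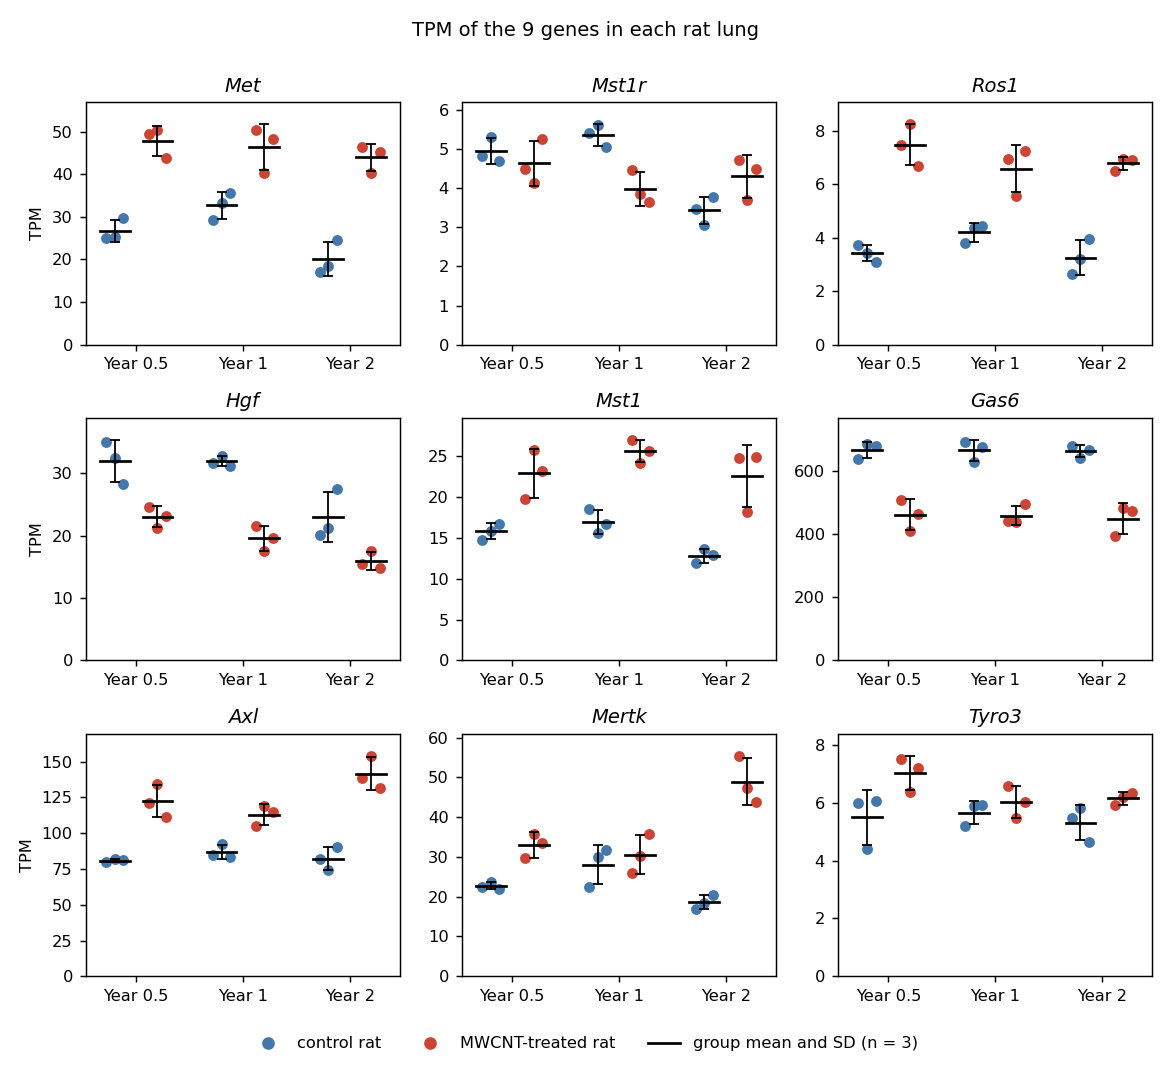
Each panel plots the TPM (y axis, from 0) of 1 gene in each rat by time point (x axis), control rats in blue and MWCNT-treated rats in red, with the group mean and SD of 3 rats in black. Met, Ros1, Mst1 and Axl separate the groups upward in every year and Hgf and Gas6 downward, while Mertk ranges from 43.9 to 55.4 TPM in treated rats at Year 2 against 16.9 to 20.4 TPM in controls.

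Hgf, the ligand of MET (ENSRNOG00000007027, chromosome 4, 15433295 to 15505362, minus strand), was at 35.0, 32.5 and 28.3 TPM in controls and at 24.6, 21.3 and 23.1 TPM in treated rats at Year 0.5. At Year 1, Hgf was at 31.7, 32.8 and 31.2 TPM in controls and at 21.6, 17.5 and 19.6 TPM in treated rats. At Year 2 the levels of Hgf were 20.1, 21.3 and 27.5 TPM in controls and 15.4, 17.5 and 14.7 TPM in treated rats. The treated rats were below the controls of their own year throughout, and both groups were lower at Year 2. Hgf fell with a log2 fold change of -0.33 (SE 0.09, FDR = 0.018) at Year 0.5, -0.47 (SE 0.08, FDR = 0.0013) at Year 1 and -0.31 (SE 0.11, FDR = 0.047) at Year 2 by edgeR. The Hgf call was lost at Year 0.5 without control rat 1 (FDR = 0.072), control rat 2 (0.053), treated rat 2 (0.085) or treated rat 3 (0.057), and at Year 2 without control rat 3 (0.12), treated rat 1 (0.11) or treated rat 3 (0.16).

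Mst1, the gene of macrophage-stimulating protein (ENSRNOG00000019680, chromosome 8, 116857684 to 116862423, plus strand), moved the other way from Hgf. Mst1 was at 14.8, 15.9 and 16.8 TPM in controls and at 19.7, 25.7 and 23.2 TPM in treated rats at Year 0.5. The Year 1 levels were 18.5, 15.7 and 16.8 TPM against 27.0, 24.2 and 25.6 TPM. The Year 2 levels were 11.98, 13.7 and 12.9 TPM against 24.8, 18.2 and 24.9 TPM. No treated rat overlapped with the controls of its own year, and the nearest was treated rat 1 of Year 0.5. Mst1 rose by 0.68 (SE 0.11, FDR = 0.0018), 0.83 (SE 0.10, FDR = 0.00026) and 1.03 (SE 0.14, FDR = 0.00025) on the log2 scale at the successive time points by edgeR. Mst1 was a DEG at Year 2 by a narrow margin, since its log2 fold change was 0.94 without treated rat 1, 0.98 without treated rat 3 and 0.86 with library size alone.

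Among the TAM receptors, Axl (ENSRNOG00000020716, chromosome 1, 82549420 to 82580761, minus strand) had the highest level. Axl was at 79.6, 81.8 and 81.3 TPM in controls and at 121, 134 and 112 TPM in treated rats at Year 0.5. At Year 1, Axl was at 84.7, 92.3 and 83.5 TPM in controls and at 105, 119 and 115 TPM in treated rats, and at Year 2 at 81.8, 74.4 and 90.5 TPM in controls and at 139, 154 and 131 TPM in treated rats. Every treated rat exceeded all 9 control rats, and control levels changed little with time. Axl rose by 0.74 (SE 0.08, FDR = 0.0002), 0.62 (SE 0.09, FDR = 0.00084) and 1.00 (SE 0.10, FDR = 3.6e-05) on the log2 scale by edgeR. The Year 2 value of Axl lay just inside the fold limit and passed it at 1.06 without treated rat 3, 1.02 without control rat 1 and 1.06 without control rat 3.

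Mertk (ENSRNOG00000017319, chromosome 3, 121235119 to 121342444, plus strand), a receptor through which macrophages engulf dying cells, had another time course. At Year 0.5, Mertk was at 22.6, 23.7 and 21.997 TPM in controls and at 29.6, 35.9 and 33.5 TPM in treated rats. At Year 1, the levels of Mertk were 22.5, 29.9 and 31.8 TPM in controls and 25.9, 30.1 and 35.7 TPM in treated rats. By Year 2, Mertk was at 16.9, 18.5 and 20.4 TPM in controls and at 55.4, 47.4 and 43.9 TPM in treated rats. The groups were apart at Year 0.5, overlapped at Year 1 and lay farthest apart at Year 2, when all treated rats were above, and all controls below, every other rat. Mertk rose by 0.68 (SE 0.09, FDR = 0.00043) at Year 0.5 and by 1.62 (SE 0.11, FDR = 4.7e-06) at Year 2 on the log2 scale by edgeR, and its difference of 0.36 (SE 0.14) at Year 1 did not pass at FDR = 0.072. That Year 1 call was sensitive to the test, since Mertk passed with DESeq2 (0.35, FDR = 0.047), with 1 model of all 18 rats (0.35, FDR = 0.035) and without treated rat 1 (0.48, FDR = 0.025).

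Tyro3 (ENSRNOG00000058586, chromosome 3, 111597102 to 111616142, plus strand), the third TAM receptor, was low. Tyro3 was at 6.00, 4.41 and 6.06 TPM in controls and at 7.49, 6.35 and 7.20 TPM in treated rats at Year 0.5. Its levels were 5.19, 5.87 and 5.91 TPM against 6.57, 5.47 and 6.03 TPM at Year 1, and 5.47, 5.81 and 4.64 TPM against 5.91, 6.19 and 6.34 TPM at Year 2. The Year 1 groups overlapped, and the gaps at Year 0.5 and Year 2 were small beside the spread within groups. Tyro3 was called higher by 0.49 (SE 0.15, FDR = 0.027), 0.32 (SE 0.11, FDR = 0.046) and 0.43 (SE 0.14, FDR = 0.027) on the log2 scale by edgeR. With library size in place of TMM factors, Tyro3 passed at no time point, with FDR = 0.062, 0.20 and 0.14. The Year 1 call of Tyro3 was also lost without any single rat of that year, with FDR from 0.063 to 0.14. At Year 0.5 the Tyro3 call was lost without control rat 2 (0.062), treated rat 1 (0.083) or treated rat 3 (0.06), and at Year 2 without control rat 3 (0.064), treated rat 1 (0.06), treated rat 2 (0.055) or treated rat 3 (0.062).

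Gas6 (ENSRNOG00000018233, chromosome 16, 81213364 to 81243757, minus strand), the vitamin K-dependent ligand of all 3 TAM receptors, was the most abundant member in every group. Gas6 was at 636, 683 and 678 TPM in controls and at 508, 411 and 462 TPM in treated rats at Year 0.5. Its levels were 690, 628 and 675 TPM against 442, 439 and 494 TPM at Year 1, and 679, 641 and 666 TPM against 393, 481 and 473 TPM at Year 2. All 9 treated rats were below all 9 controls, and the mean of neither group moved with time by more than its SD. Gas6 fell with a log2 fold change of -0.39 (SE 0.08, FDR = 0.0053), -0.30 (SE 0.08, FDR = 0.02) and -0.35 (SE 0.09, FDR = 0.011) at the successive time points by edgeR. The Year 1 call of Gas6 was lost without control rat 1 (FDR = 0.064), control rat 3 (0.072) or treated rat 1 (0.065).

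**Figure D2:**
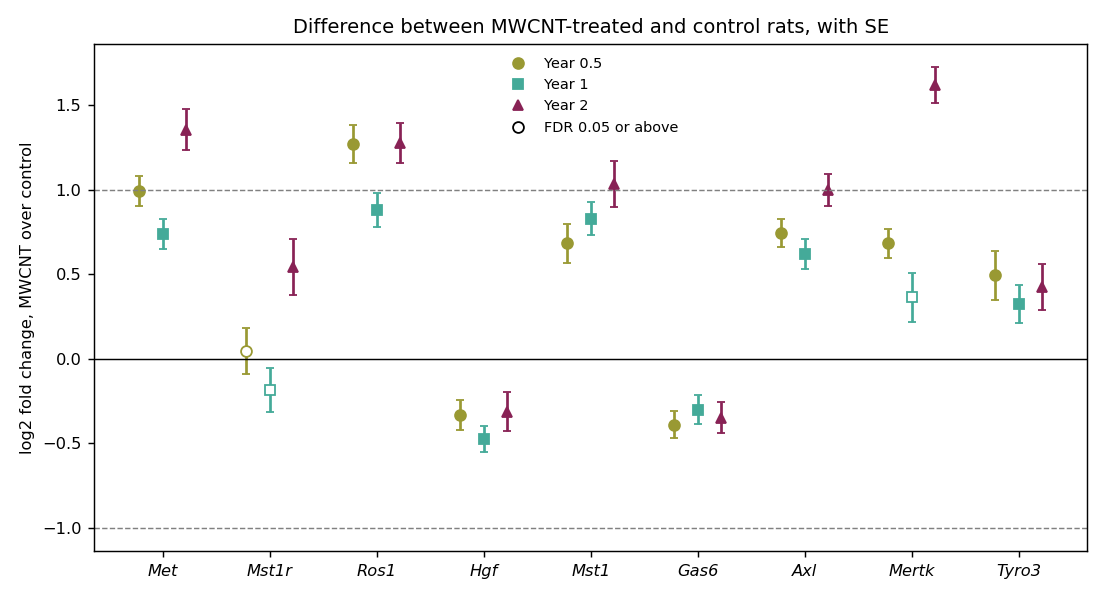
The log2 fold change of MWCNT-treated over control rats (y axis, fitted with edgeR, bars showing SE) is plotted for the 9 genes (x axis) at Year 0.5 (circles), Year 1 (squares) and Year 2 (triangles), filled where FDR was below 0.05 and with dashed lines at a log2 fold change of 1 and -1. Mertk at Year 2 is the highest point at 1.62, and Hgf and Gas6 lie below 0 at all 3 time points.

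Counted over the members, 1 of 9 was a DEG at Year 0.5 (Ros1), when 9.1% of all genes tested were DEGs. At Year 1, 0 of 9 were DEGs by edgeR, although 8 of 9 had an unadjusted p below 0.05, and DESeq2 also gave 0; 10.2% of all genes were DEGs. At Year 2, 4 of 9 were DEGs (Met, Mst1, Ros1 and Mertk, all higher), when 16.4% of all genes were DEGs and 8.17% were DEGs that rose. By FDR alone, 8, 7 and 9 of the 9 members passed at the 3 time points in order, against a background of 38.8%, 41.2% and 49.2% of all genes. Hgf and Gas6 were the 2 that fell at each time point, where 18.6%, 19.6% and 24.0% of all genes fell, and the 6, 5 and 7 that rose stood beside 20.2%, 21.6% and 25.2% of all genes. TPM ranges of the groups did not overlap for 8, 7 and 8 of 9 members, where 57.7%, 61.7% and 63.8% of all genes showed no overlap. Median log2 fold changes of all genes were -0.021, 0.00053 and -0.011 over the 3 time points.

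The receptors and their ligands were also set side by side within each rat, which removes the library scale. The ratio of Met to Hgf TPM was 0.718 to 1.14 over the 9 controls and 1.90 to 3.07 over the 9 rats given MWCNT. The ratio of Axl to Gas6 TPM ranged from 0.116 to 0.147 in control rats and from 0.232 to 0.354 in treated rats. Both ratios separated the 9 treated from the 9 control rats, as the levels of Met, Axl and Gas6 did alone and the level of Hgf did not. The ratio of Mst1r to Mst1 TPM went the other way, from 0.224 to 0.358 in control rats to 0.142 to 0.228 in treated rats, where 1 control rat and 2 treated rats crossed. Axl made up 68.9% to 78.6% of the summed TPM of the 3 TAM receptors in control rats and 69.4% to 77.0% in treated rats. The share of Mertk in that sum was 16.2% to 18.7% in controls and 22.8% to 27.7% in treated rats at Year 2, and the ranges overlapped at Year 0.5 and Year 1.

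**Figure D3:**
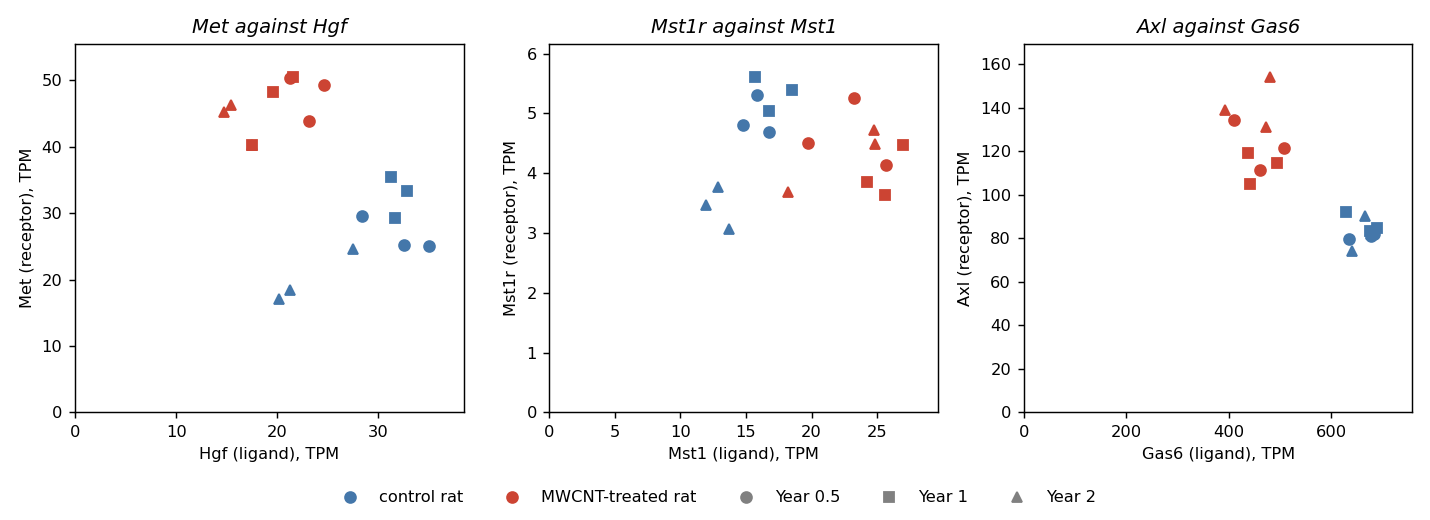
Receptor TPM (y axis) is plotted against ligand TPM (x axis) for Met and Hgf, Mst1r and Mst1, and Axl and Gas6, both axes from 0, with 1 point per rat in blue for control and red for MWCNT-treated rats and with the time point as the shape. The treated rats form their own cloud to the upper left for Met and Axl, where the receptor to ligand ratios are at least 1.90 and 0.232, while Mst1 separates the groups within each time point and not over all rats.

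The order of the levels within a rat group was led by Gas6 and then Axl in all 6 groups, with no overlap between them or with the next gene. Met and Hgf were neighbours that overlapped in each control group, while in every treated group Met stood above Hgf without overlap. Ros1 was the lowest member in the 3 control groups and overlapped with Mst1r at Year 2. In the 3 treated groups Mst1r was the lowest, and Ros1 and Tyro3 overlapped at Year 0.5 and Year 1. Mertk stood below Met and Hgf in the means of all control groups, between Met and Hgf in treated rats of Year 0.5 and Year 1, and above both in treated rats of Year 2, where it overlapped with Met.

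Whether the treatment effect changed with time was tested as an interaction in 1 model of the 18 rats. From Year 0.5 to Year 2, the log2 fold change of Mertk grew by 0.94 (SE 0.19, FDR = 0.021, edgeR), and 1 of 9 members passed where 1.31% of all genes did. From Year 1 to Year 2 it grew by 1.27 (SE 0.19, FDR = 0.015), again for Mertk alone of the 9, where 0.478% of all genes passed. The Mertk interaction against Year 0.5 had an FDR above 0.05 when any of 5 rats was left out, with FDR = 0.056 and 0.057 without control rats 1 and 2 of Year 2, 0.06 and 0.07 without treated rats 1 and 3 of Year 0.5, and 0.066 without treated rat 1 of Year 2, while its size stayed between 0.82 and 1.02. The interaction against Year 1 was at FDR = 0.051 without control rat 3 of Year 1 (1.17). Of the other members, Met (0.63, SE 0.16, FDR = 0.067) and Mst1r (0.74, SE 0.19, FDR = 0.071) did not pass from Year 1 to Year 2 with edgeR and passed with DESeq2 at FDR = 0.0099 and 0.028 and without control rat 3 of Year 2 at 0.014 and 0.048. Between Year 0.5 and Year 1, 0 of 9 members passed by edgeR, with 1 at an unadjusted p below 0.05, as 0.0% of all genes did. The summed macrophage markers, the list whose cells are known for Mertk, were higher in treated rats at all 3 time points. Without Lyz2, the other 9 markers summed to 779 to 907 TPM in treated rats of Year 0.5 and to 1054 to 1151 TPM in those of Year 2, beside 315 to 351 TPM and 312 to 362 TPM in controls. At Year 1, when the Mertk difference did not pass, these 9 summed to 830 to 970 TPM in treated rats and 387 to 406 TPM in controls. The median log2 fold change of all 10 was 1.42, 1.40 and 1.94 at the successive time points. Siglec1, a sialic acid-binding receptor of macrophages, was at 20.5, 24.9 and 17.3 TPM in treated rats of Year 0.5 and at 38.6, 31.8 and 29.5 TPM in those of Year 2. It was picked from the 10 after its values were seen, and others of the list differed from it. Counts of Mrc1, not scaled to depth, were 4533 to 7033 in treated rats of Year 0.5 and 5074 to 5226 in those of Year 2. Those of Csf1r were 4811 to 7217 and 5488 to 6751. The rest of the 10 are not given here by rat. The part of these markers in the Mertk interaction was not tested.

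Change with time was then taken within each treatment, where age and the length of treatment cannot be told apart and where each group enters both of its comparisons. In MWCNT-treated rats, Mertk rose by 0.65 (SE 0.13, FDR = 0.003) from Year 0.5 to Year 2 and by 0.70 (SE 0.13, FDR = 0.0043) from Year 1 to Year 2 by edgeR. Axl rose by 0.29 (SE 0.09, FDR = 0.046) and 0.34 (SE 0.09, FDR = 0.037) over the same spans, and Hgf fell by 0.45 (SE 0.10, FDR = 0.008) from Year 0.5 to Year 2. These were 3 of 9 members from Year 0.5, against 13.5% of all genes, and 2 of 9 from Year 1, against 5.94%. The Axl call from Year 0.5 was lost under library size alone (FDR = 0.063), upper quartile factors (0.054) and no filter (0.066) and when single rats were left out, with FDR up to 0.22, and the Axl call from Year 1 was lost without treated rat 1 (0.15) or 3 (0.11) of Year 1 and without treated rat 1 (0.10) or 2 (0.15) of Year 2.

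In control rats, Met fell by 0.41 (SE 0.11, FDR = 0.042), Hgf by 0.47 (SE 0.10, FDR = 0.013) and Mst1r by 0.52 (SE 0.14, FDR = 0.032) from Year 0.5 to Year 2 by edgeR. These were 3 of 9 members where 6.65% of all genes passed and 4.0% fell. From Year 1 to Year 2, 4 of 9 members fell, where 7.93% of all genes passed and 5.0% fell. Met fell by 0.68 (SE 0.11, FDR = 0.0051), Mst1r by 0.61 (SE 0.13, FDR = 0.015), Mertk by 0.57 (SE 0.13, FDR = 0.019) and Hgf by 0.45 (SE 0.10, FDR = 0.016). Met and Mst1r changed in treated rats from Year 0.5 to Year 2 by -0.04 (SE 0.11) and -0.02 (SE 0.13), neither past the test. By the DEG limits, 0 of 9 members changed from Year 0.5 to Year 2 in control rats (0.633% of all genes did) or in treated rats (2.34%), by edgeR and by DESeq2, with 5 and 3 members at an unadjusted p below 0.05. Each of these calls from Year 0.5 rested on 3 rats a group, and without control rat 1 of Year 0.5, or without control rat 1 or 2 of Year 2, 0 of the 3 passed. The Met call was also lost with library size only (FDR = 0.066) and with upper quartile factors (0.055). It was lost as well without control rat 2 (0.056) or 3 (0.14) of Year 0.5 and without some rats outside the comparison. In all, 11 refits lost the Met call and 14 kept it. The Mst1r call was also lost without control rat 2 (0.085) or 3 (0.061) of Year 0.5. From Year 1, the Met call held without any single rat. The Mst1r call was lost without control rat 2 of Year 1 (FDR = 0.083) or of Year 2 (0.079). The Hgf call was lost without control rat 2 of Year 1 (0.085) or control rat 1 (0.085) or 2 (0.086) of Year 2, and the Mertk call without control rat 2 (0.098) or 3 (0.088) of Year 1 or control rat 1 (0.087) or 2 (0.079) of Year 2.

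The genes that act around these receptors were described by list. The background by FDR was 20.2%, 21.6% and 25.2% of all genes higher and 18.6%, 19.6% and 24.0% lower at the successive time points. The list for cleavage of the HGF or MSP precursor held proteases, their inhibitors and the receptor Plaur. Of 10 genes tested, 7, 6 and 7 rose and 1, 2 and 1 fell by FDR at the successive time points. Their medians were 0.53, 0.49 and 0.62 on the log2 scale beside all-gene medians of -0.021, 0.00053 and -0.011. Counts of the inhibitor genes Spint1 and Spint2, not scaled to depth, were also higher in treated rats of Year 2. Spint1 was at 1723 to 1892 in controls and 2392 to 2889 in treated rats, and Spint2 at 4983 to 5900 and 6447 to 6929. The libraries of these treated rats were larger, at 14661589 to 16720170 reads against 13297643 to 14721398 in controls. These counts therefore do not give the size of a treatment difference. Plau, the urokinase-type plasminogen activator, rose by 1.27 (SE 0.12), 1.60 (SE 0.12) and 1.86 (SE 0.12), and its receptor Plaur by 1.73 (SE 0.14), 1.24 (SE 0.11) and 2.03 (SE 0.14). St14, the membrane protease matriptase, rose by 0.77 (SE 0.09), 0.87 (SE 0.08) and 1.06 (SE 0.09). Hpn, the membrane protease hepsin, rose by 0.79 (SE 0.19), 1.02 (SE 0.10) and 0.89 (SE 0.16). F11, a coagulation factor of the liver, fell by 1.08 (SE 0.19), 0.89 (SE 0.19) and 1.23 (SE 0.19). The highest FDR among these 15 values was 0.012, that of Hpn at Year 0.5.

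Of 23 tested co-receptors, adaptors and phosphatases of MET, 8, 7 and 12 rose and 4, 5 and 3 fell by FDR. List medians were 0.09, 0.07 and 0.28. Beside these counts, 20.2%, 21.6% and 25.2% of all genes rose and 18.6%, 19.6% and 24.0% fell. Cd44, a co-receptor of MET and a marker of many activated cells, rose by 1.11 (SE 0.09), 1.01 (SE 0.08) and 1.44 (SE 0.10). Its Year 1 value of 1.01 was narrowly past the DEG limit and fell short of it without control rat 2 (0.97) or treated rat 2 (0.94) of that year and with library size only (0.87), upper quartile factors (0.97), DESeq2 (0.998), 1 model of all 18 rats (0.998) or limma on TPM (0.76 to 0.77). Plxnb2, a semaphorin receptor, rose by 0.69 (SE 0.08), 0.61 (SE 0.08) and 1.05 (SE 0.07). The 2 were the DEGs of this list.

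Of the other TAM ligands, vitamin K cycle genes and sheddases, 4 of 9, 4 of 8 and 7 of 9 tested rose and none fell by FDR. Medians were 0.19, 0.30 and 0.61. The shares over all genes were 20.2%, 21.6% and 25.2% higher and 18.6%, 19.6% and 24.0% lower. The gene of protein S, Pros1, was higher by 0.19 (SE 0.06, FDR = 0.043), 0.38 (SE 0.07, FDR = 0.0025) and 0.67 (SE 0.08, FDR = 0.00017), the direction opposite to that of Gas6. Lgals3, which encodes galectin-3, a ligand described for MERTK and an abundant macrophage protein, was at 267 to 348 TPM over the 9 control rats and at 1120 to 1434 TPM, 1436 to 1787 TPM and 2008 to 2386 TPM in the treated groups in order of time. Its log2 fold change was 2.21 (SE 0.12), 2.48 (SE 0.13) and 3.03 (SE 0.11). Tub, also described as a MERTK ligand, had 2 to 10 counts in controls and 24 to 57 in treated rats at Year 0.5. At Year 2 it had 7 to 12 counts in controls and 22 to 25 in treated rats. Tub passed the filter on low counts at these time points through the treated rats, and it was not tested at Year 1. Its DEG calls at Year 0.5 (2.58, SE 0.48) and Year 2 (1.38, SE 0.37) are therefore not independent of the filter. The Year 2 call was lost in 2 refits, and no Tub value was above 2.99 TPM. Adam17, a protease that sheds MERTK and AXL from the cell surface, rose by 0.57 (SE 0.08), 0.62 (SE 0.08) and 0.74 (SE 0.07).

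By FDR, 20.2%, 21.6% and 25.2% of all genes rose and 18.6%, 19.6% and 24.0% fell. Of 19 tested genes of apoptotic cell uptake, 9, 7 and 9 rose and 3, 3 and 2 fell by FDR, with medians of 0.06, 0.12 and 0.13. Itgav, an integrin subunit that binds such cells through bridging proteins, rose by 0.81 (SE 0.14), 0.69 (SE 0.10) and 1.39 (SE 0.10). Abca1, a cholesterol exporter, rose by 0.73 (SE 0.15), 0.97 (SE 0.12) and 1.01 (SE 0.08). Gulp1, an adaptor of engulfment, fell by 0.98 (SE 0.10), 1.01 (SE 0.10) and 1.25 (SE 0.19). The nuclear receptor and suppressor list had 1, 0 and 3 of 11 higher and 1, 0 and 3 lower by FDR, beside the 38.8%, 41.2% and 49.2% of all genes that passed in either direction, and medians of -0.09, 0.16 and -0.05. Within it Pparg, a lipid-sensing nuclear receptor of alveolar macrophages, was higher by 0.82 (SE 0.14, FDR = 0.0016) at Year 0.5 and 1.15 (SE 0.14, FDR = 0.00018) at Year 2 and by 0.33 (SE 0.12, FDR = 0.056) at Year 1.

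Of the list around ROS1, 4, 4 and 6 rose and 3, 2 and 2 fell by FDR of 14, 14 and 13 tested. Medians were 0.05, 0.11 and 0.14. Over all genes, 20.2%, 21.6% and 25.2% rose and 18.6%, 19.6% and 24.0% fell. Cd74, the invariant chain of antigen presentation and a fusion partner of ROS1 in human tumors, rose by 1.31 (SE 0.09), 1.40 (SE 0.13) and 1.63 (SE 0.11) and was the list's DEG. Slc34a2, a phosphate transporter of alveolar type 2 cells and another such partner, was higher by 0.41 (SE 0.06, FDR = 0.0011), 0.09 (SE 0.08, FDR = 0.38) and 0.33 (SE 0.11, FDR = 0.034). Nell2, the ROS1 ligand, was tested at Year 0.5 and Year 1 and passed at neither, at -0.74 (SE 0.50, FDR = 0.27) and -0.64 (SE 0.41, FDR = 0.25). These lists hold genes of several cell types, and the marker sums given above also differed between treated and control rats. The part of those markers in these lists was not tested.

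**Figure D4:**
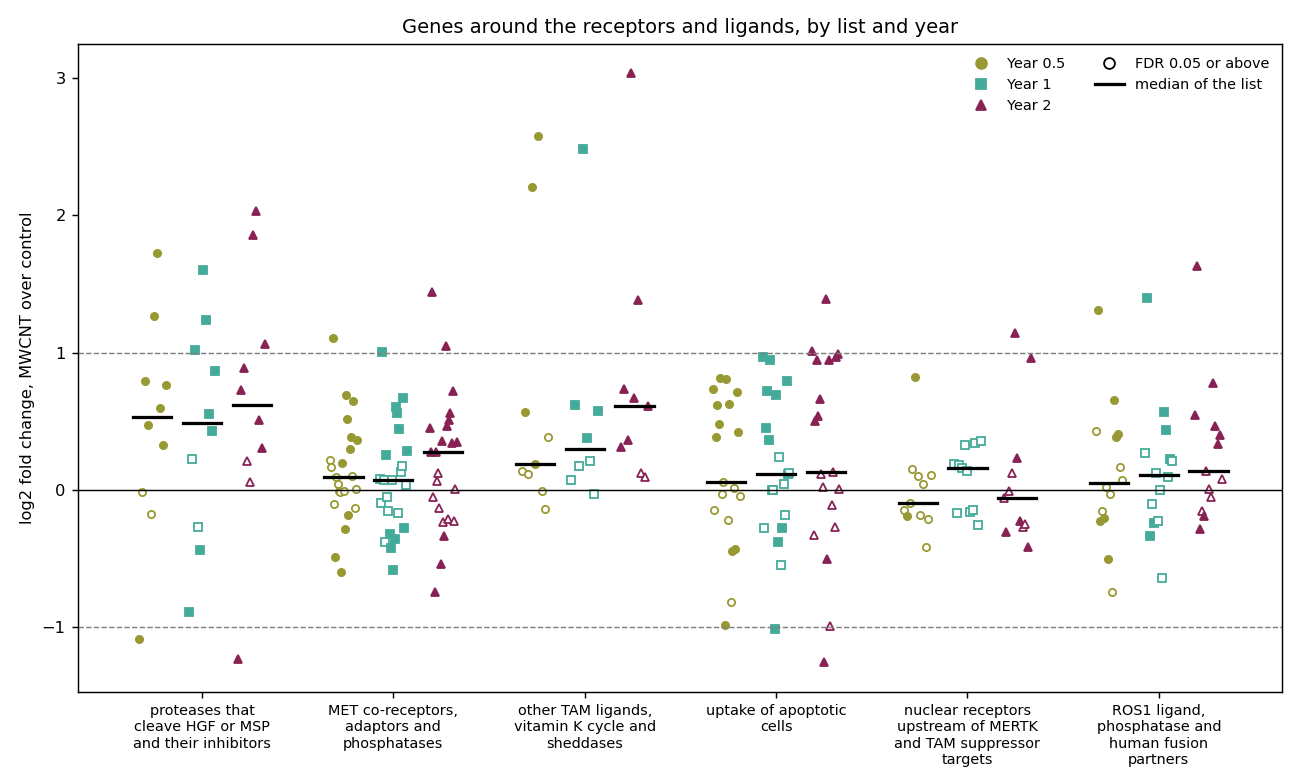
Each point is the log2 fold change of MWCNT-treated over control rats (y axis) of 1 gene of the list named on the x axis, at Year 0.5 (circles), Year 1 (squares) or Year 2 (triangles), filled where FDR was below 0.05, with black bars for list medians and dashed lines at 1 and -1. The protease list has medians from 0.49 to 0.62, the other medians lie between -0.09 and 0.61, and Lgals3 at Year 2 is the highest point at 3.03.

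The genes whose course over the 18 rats was most like that of a member were found by the root mean square difference of centred log2 CPM (counts scaled to library size). Mst1 was nearest to Napsa (0.118), Abca3 (0.141) and Abcg1 (0.142), of which Napsa and Abca3 are on the list of alveolar type 2 markers, while the SD of Mst1 itself was 0.471. Ros1 was nearest to Tc2n (0.132), Npc1 (0.137) and Dram1 (0.143), with an SD of 0.611. Met was near to Anpep (0.130) and Hhip (0.131), with an SD of 0.583. Mertk was nearest to Clcn7 (0.186), Lpl (0.192) and Baiap2 (0.204), at an SD of 0.556. Axl was nearest to Abhd12, Tnfrsf21 and Cbfb, with differences from 0.0909 to 0.0963 at an SD of 0.430. Gas6 was nearest to Map3k11, Ech1 and Rara, with differences from 0.0607 to 0.0865 at an SD of 0.200. Hgf was nearest to Arhgap5, Bmpr1a and Ppp1cb, with differences from 0.0898 to 0.104 at an SD of 0.304. For Mst1r (Atp2b1, Man1a2 and Wdr44) and Tyro3 (Coro1c, Mgrn1 and Tars1) the differences, from 0.143 to 0.146 and from 0.114 to 0.121, were large beside SDs of 0.245 and 0.251. The 18 rats share the 6 groups, so a small difference describes a like course and nothing more.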

How the data were processed

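Lung RNA of 18 rats was sequenced. The authors mapped the reads with CLC Genomics Workbench 22.0.2 to the rat genome (Rnor_6.0, rn6 per the labels) and deposited raw read counts per gene. The authors also deposited TPM values per rat in the same 3 tables, 1 per time point, and these are the levels given here. Another 36 per-sample columns (RPKM and TMM-adjusted CPM) and the columns of the authors' own comparisons, which hold fold changes and p-values, were not used. Groups were taken from the labels. The library kit named there does not mark strand, so a gene and an antisense partner cannot be told apart.

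Counts were analysed with edgeR 4.0.16 in R 4.3.3 (quasi-likelihood test, TMM factors, filterByExpr at minimum counts of 10 per rat and 15 in total), on the 6 rats of each time point, and on all 18 rats for interactions and time. DEGs had FDR < 0.05 and an absolute log2 fold change above 1. SE was the fold change divided by the square root of F. limma 3.58.1 and DESeq2 1.42.0 served as alternatives. The fits were tested on simulated data. Members, gene lists and tests were chosen with earlier results of these data known. All members were named, with up to 5 DEGs per list by size at Year 2 and 3 nearest genes per member, of which 1 is not reported here; Pros1, Adam17, Slc34a2, Nell2, Lyz2, Cd163 and Siglec1, and the macrophage sum without Lyz2, were added once their values had been seen. The list genes Crkl, Timd4, Cd36, Itgb5, Dock2, Adgrb1, Foxj1, Col1a2 and Pecam1 were not analysed here. Same-numbered rats did not deviate together (mean r = 0.0068 over 9 pairs), so the numbers were not treated as pairs. The labels describe the replicates of a group as separate rats. Other markers examined were those of airway epithelium, neutrophils, lymphocytes, fibroblasts and mesothelium.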

Additional observations from a re-analysis of the deposited data

Results flagged for a closer look

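The treatment effect on Mertk differed between time points by the interaction test, by 0.94 on the log2 scale between Year 2 and Year 0.5 and by 1.27 between Year 2 and Year 1. In the same test the effect on Lgals3 differed by 0.83 (FDR = 0.030) between Year 2 and Year 0.5, with log2 fold changes of 2.21 and 3.03.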

How the results depend on the processing

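Over the 27 member fold changes, 374 refits kept direction and side of FDR 0.05, 47 lost the call, 7 gained one and 4 turned direction. The count of members called DEG at Year 0.5, 1, became 0 with limma on log2(TPM + 1) and 8 by FDR alone, the count at Year 1, 0, became 7 by FDR alone, and the count at Year 2, 4, became 2 with limma on log2(TPM + 1) and 9 by FDR alone. Leaving out 1 rat gave 1 to 2, 0 to 0 and 3 to 5 DEGs at the 3 time points in order, 0 to 1 members with an interaction between Year 2 and Year 0.5, and 0 to 3 members changed by FDR in control rats. Turned directions were all of values that did not pass. Mst1r at Year 0.5 was -0.056 with library size only, -0.10 with limma and a pseudocount of 0.1 on TPM, -0.081 with one of 1, and -0.029 to 0.12 without 1 rat. Interactions between Year 2 and Year 0.5 turned for Hgf (-0.048), Ros1 (-0.059) and Gas6 (-0.024) with library size only, and for Ros1 with no filter (-0.011) and upper quartile factors (-0.0095). Without 1 rat they ranged from -0.045 to 0.16 for Hgf, -0.092 to 0.15 for Ros1, -0.16 to 0.066 for Tyro3 and -0.017 to 0.12 for Gas6, and between Year 2 and Year 1 from -0.077 to 0.039 for Gas6. The causes were not tested. With the replicate number as a block, the replicate block fit called 1, 0 and 4 members as DEGs, as without it. By FDR it called 8, 7 and 7 in place of 8, 7 and 9, with Hgf (FDR = 0.093) and Tyro3 (0.053) lost at Year 2, Tyro3 lost (0.086) and Mertk gained (0.0079) at Year 1. Precision is limited by 3 rats a group and, for Mst1r and Tyro3, by counts of 95 to 260 per rat.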

Other observations

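Marker lists that the comparisons did not draw on gave these values. The 5 airway epithelium markers found summed to 17872 to 32523 TPM in control rats and 10304 to 15295 TPM in MWCNT-treated rats. Scgb1a1 made up 98.7% to 99.8% of that sum in every rat. The other 4 summed to 77 to 354 TPM in control rats and 26 to 147 TPM in treated rats. Neutrophil markers summed to 206 to 365 TPM in control rats and 360 to 1130 TPM in treated rats, with 1 of 5 at 0 in all treated rats of Year 1 and of Year 2 and in all control rats of Year 2. S100a9 made up 43.9% to 52.1% of that sum in controls and 61.8% to 67.0% in treated rats. By FDR, 1, 2 and 2 of the 4 tested rose at the 3 time points in order and 3, 2 and 2 did not pass. Of all genes, 20.2%, 21.6% and 25.2% rose by FDR and 18.6%, 19.6% and 24.0% fell. Lymphocyte markers summed to 142 to 246 TPM in control rats and 47 to 120 TPM in treated rats. Fibroblast markers, a list of cells known to make Hgf, summed to 876 to 1685 TPM in controls and 854 to 1390 in treated rats. Col3a1 made up 28.6% to 38.4% of that sum in controls and 44.9% to 52.3% in treated rats. The other 5 summed to 794 to 1039 TPM in controls and 637 to 663 TPM in treated rats at Year 0.5. At Year 1 they summed to 776 to 939 against 471 to 558 TPM. At Year 2 they summed to 594 to 751 against 456 to 525 TPM. By FDR, 2, 1 and 2 of the 6 tested rose and 3, 3 and 3 fell. The part of these markers in the Hgf difference was not tested. Mesothelium markers summed to 46 to 163 TPM in controls and 83 to 139 TPM in treated rats.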
